A study of Mus musculus with 2 samples.

Results

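The genes described here are 35 named genes of the unfolded protein response and the integrated stress response, taken by symbol from a table of 21983 genes. All 35 were in the table and all had at least 20 counts summed over the libraries, the minimum used below. RNA was sequenced from primary mouse chondrocytes, the cells that make cartilage matrix, of wild-type genotype. One culture was exposed for 3 days to recombinant mouse Sparcl1 at 50 ng/ml. The other was given phosphate-buffered saline (PBS) as a control over the same 3 days. Both were kept in the same serum-containing medium, and strain, age and number of animals are not given in the sources used here. Sparcl1, a relative of Sparc, is secreted and binds matrix. There was 1 library per group, so no difference below has a replicate check, and every interval covers counting error only.

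Secreted and membrane proteins are folded in the endoplasmic reticulum (ER) by chaperones, and a cartilage cell sends large amounts of collagen and proteoglycan through it. When unfolded protein builds up there, the sensors Ern1 (IRE1), Atf6 and Eif2ak3 (PERK) start the unfolded protein response: IRE1 splices Xbp1 mRNA, ATF6 is cut into a transcription factor, and both then raise chaperone and degradation genes. PERK phosphorylates the translation factor eIF2, which slows most translation but favours that of Atf4. Other kinases reach the same point from amino-acid shortage, haem shortage or double-stranded RNA, so the ATF4 branch is called the integrated stress response. ATF4 raises genes of amino-acid synthesis and uptake as well as regulators such as Ddit3 and Trib3. The 35 genes were therefore split into 14 ER chaperones and folding enzymes, 4 sensors and factors, 4 genes of ER-associated degradation, 8 regulators of the integrated stress response, and 5 amino-acid enzymes or carriers.

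The promoters are shown first because response elements for the factors of both branches are known, and 13 of the promoters held at least 1 of those searched. RefSeq promoters of GRCm38.p6, from 250 bases before to 50 after each start, were at hand for 32 of the 35 genes. On both strands, 4 motifs were searched: the ER stress element, which is CCAAT and CCACG with 9 bases between them, the ER stress element II, which is ATTGG and CCACG with 1 base between them, the unfolded protein response element TGACGTGG, and the C/EBP-ATF response element TGATGNAA. The motifs share letters, since CCACG is in both ER stress elements and its complement ends TGACGTGG. The ER stress element was in 7 of 12 chaperone promoters (58.3%) and in 1 of 4 degradation promoters, against 37 of 27025 genes in the whole promoter table (0.137%). It was in none of the 8 regulator, 5 amino-acid or 3 sensor promoters. The element is one already known for the chaperone branch, so these shares are a description and not an independent test. The sites are printed in the direction of the motif, with the fixed letters in capitals, and compare how the same spaced letters sit in different flanks.
Hspa5: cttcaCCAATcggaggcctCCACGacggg
Hsp90b1, distal: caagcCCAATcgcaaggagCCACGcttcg
Hsp90b1, proximal: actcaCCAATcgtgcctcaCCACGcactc
Calr: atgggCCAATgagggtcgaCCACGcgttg
Canx: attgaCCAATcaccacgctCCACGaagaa
Pdia6: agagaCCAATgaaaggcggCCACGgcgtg
Dnajc3: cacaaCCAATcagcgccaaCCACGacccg
Creld2: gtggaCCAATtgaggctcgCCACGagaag
Syvn1: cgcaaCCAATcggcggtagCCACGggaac

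The first base of these sites lay between position -212 (Hsp90b1) and position -44 (Syvn1), counted back from the start. The ER stress element II was found in Herpud1 and Dnajb11 and in 0.0444% of all genes in the promoter table. The C/EBP-ATF response element was found in Trib3, Chac1, Asns and Herpud1, which is 4 of 32 genes (12.5%), against 4.51% of all genes. The unfolded protein response element was in no promoter of the 32, against 0.714% of all genes. A match is a description of letters and not a shown binding site. The sites below, with those above, are all 15 matches found in the 32 genes, and Herpud1 held a motif of each branch. Ddit3 and Atf5, which with Trib3 had the lowest ratios of the 35, held none of the motifs.
Herpud1, ER stress element II: cgggcgctgATTGGgCCACGttggacact
Herpud1, C/EBP-ATF: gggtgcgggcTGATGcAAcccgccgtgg
Dnajb11, ER stress element II: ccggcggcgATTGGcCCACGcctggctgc
Asns, C/EBP-ATF: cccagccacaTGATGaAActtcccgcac
Chac1, C/EBP-ATF: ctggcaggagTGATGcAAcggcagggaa
Trib3, C/EBP-ATF: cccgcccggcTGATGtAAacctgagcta

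Whole upstream runs of 250 bases are given for 2 genes of each branch, on the strand of the gene and ending at the base before its start, with every match in capitals. Hspa5 and Creld2 stand for the chaperones and Asns and Trib3 for the ATF4 branch. The Trib3 match above begins at position 15, counted from 1 at the RefSeq start, so this run of Trib3 holds no capitals. At 152344039 to 152344046, that match lies upstream of the GENCODE bounds of the gene, 152337422 to 152344032. For 29 of 34 member promoters, bases after the start were found in a GENCODE transcript, and that of Trib3 was not among them. The runs are chr2:34771840-34772089 (plus strand), chr15:88819396-88819645 (plus strand), chr6:7693210-7693459 (minus strand) and chr2:152344061-152344310 (minus strand).
Hspa5: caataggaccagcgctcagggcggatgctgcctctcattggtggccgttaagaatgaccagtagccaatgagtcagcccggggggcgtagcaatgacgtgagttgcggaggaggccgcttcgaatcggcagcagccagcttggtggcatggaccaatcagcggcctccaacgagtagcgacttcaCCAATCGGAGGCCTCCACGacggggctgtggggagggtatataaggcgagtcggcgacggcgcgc
Creld2: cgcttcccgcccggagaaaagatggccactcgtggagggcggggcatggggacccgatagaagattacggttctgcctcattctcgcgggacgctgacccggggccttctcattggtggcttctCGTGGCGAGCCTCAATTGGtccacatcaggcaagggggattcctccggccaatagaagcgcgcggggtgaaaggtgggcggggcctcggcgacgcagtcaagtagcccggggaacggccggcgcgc
Asns: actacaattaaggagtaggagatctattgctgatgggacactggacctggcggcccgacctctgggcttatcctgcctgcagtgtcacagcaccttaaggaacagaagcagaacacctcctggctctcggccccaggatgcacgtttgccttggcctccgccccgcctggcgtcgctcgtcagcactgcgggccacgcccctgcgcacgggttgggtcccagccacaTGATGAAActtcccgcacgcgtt
Trib3: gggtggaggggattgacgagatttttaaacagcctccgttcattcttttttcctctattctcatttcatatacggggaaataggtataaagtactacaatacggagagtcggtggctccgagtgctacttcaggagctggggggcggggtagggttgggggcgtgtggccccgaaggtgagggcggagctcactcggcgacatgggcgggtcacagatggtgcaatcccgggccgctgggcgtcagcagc

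Counts were scaled to a common library size (CPM), and ratios are Sparcl1 over PBS control with an exact 95% Clopper-Pearson counting interval. A gene was called higher or lower by a size rule: its log2 ratio was 0.32 or more in size, its interval excluded 0 and its summed counts reached 20. Because PCR copies count as separate reads, even the counting error may be understated. The Sparcl1 library held 26871933 gene counts and the PBS library 29858851. Of 11194 genes with 200 or more summed counts, the middle 95% had log2 ratios between -0.42 and 0.42. Each of the 35 genes had ratios inside that range except Trib3.

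Chaperone transcripts were almost level between the libraries, whereas the regulators of the integrated stress response were all on the low side in the Sparcl1 library. The median log2 ratio was 0.049 for the 14 chaperones, -0.18 for the 8 regulators and -0.14 for the 5 amino-acid genes, beside -0.0019 for all 13317 genes with at least 20 summed counts. With smooth trends on exon length and GC content removed, the regulators' median was -0.29, that of the chaperones 0.050 and that of the amino-acid genes -0.16. Trib3 and Ddit3 were called lower, no member was called higher, and none passed 2-fold. Of all measured genes, 5.97% were called higher and 5.77% lower by the size rule, and 0.954% and 0.946% at 2-fold. The 2 lower calls among 35 genes are thus about what the whole table holds, and the count is not a result about these genes. Among the 8068 genes with at least 1000 summed counts, 3.16% were called higher and 3.07% lower. In bulk RNA, fewer cells of a type and less RNA per cell cannot be told apart.

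**Figure D1:**
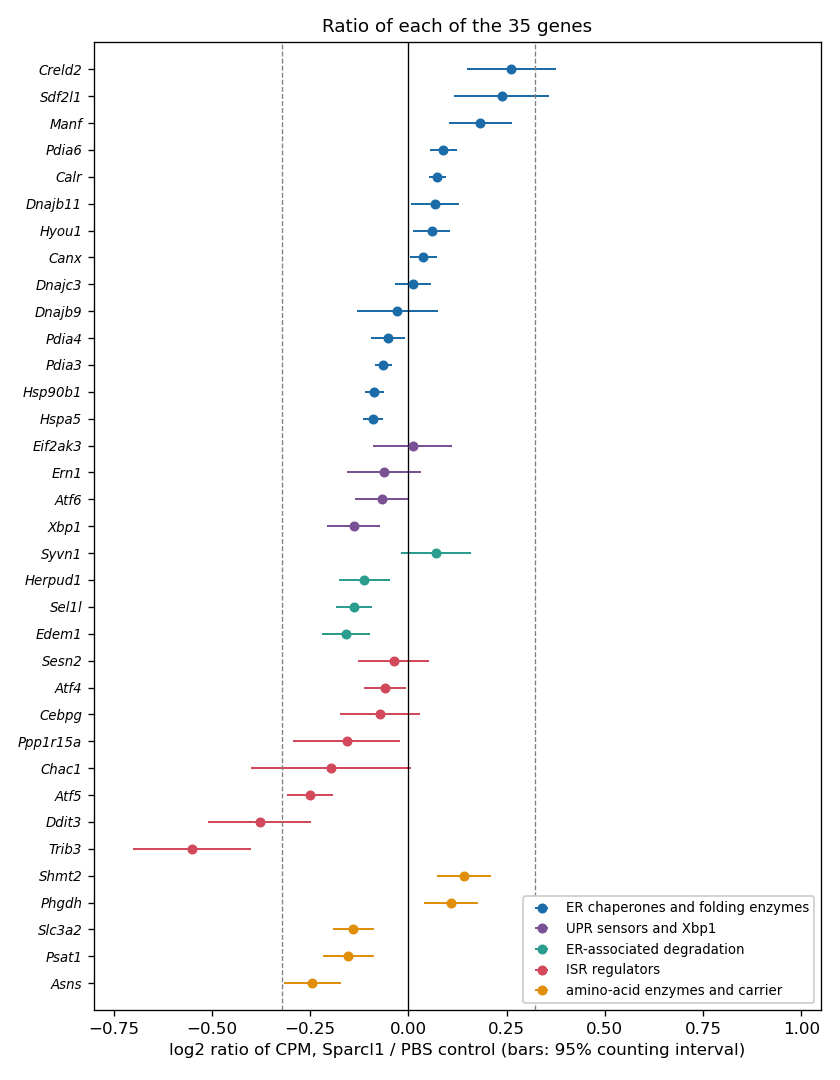
Log2 ratio of CPM, Sparcl1 over PBS control (horizontal axis), for each of the 35 genes, coloured by group (UPR, unfolded protein response; ISR, integrated stress response), with 95% counting intervals as bars and 1 library per group; dashed lines mark a log2 ratio of 0.32 in size. All 8 ISR regulators lie left of 0, with Trib3 at -0.55 farthest, and the chaperones run from -0.090 (Hspa5) to 0.26 (Creld2).

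The abundant chaperones of the ER lumen and membrane differed by under 0.1 on the log2 scale in either direction. Calr, the calcium-binding lectin chaperone calreticulin, had 32460 counts (1193 CPM) in the Sparcl1 library, against 33450 (1134 CPM) in the PBS library, a log2 ratio of 0.074 (0.052 to 0.096). Pdia3, a disulfide isomerase that works with calreticulin on glycoproteins, had 29682 counts (1091 CPM) in the Sparcl1 library, against 33633 (1140 CPM) in the PBS library. Its log2 ratio was -0.063 (-0.086 to -0.041), so these partner genes went in opposite directions by small amounts. Hspa5, the ER Hsp70 called BiP that binds the sensors themselves, had 23923 counts in the Sparcl1 library, against 27614 in the PBS library, a log2 ratio of -0.090 (-0.115 to -0.065). Hsp90b1, the ER Hsp90 called GRP94, had 26156 counts in the Sparcl1 library, against 30129 in the PBS library (-0.087). An antisense pseudogene overlaps 415 of its exon bases (10.3%), and Calr has 1 pseudogene named after it, so a small part of these counts is uncertain. Canx, the membrane-bound lectin chaperone calnexin, was at 0.038, and the disulfide isomerase genes Pdia4 and Pdia6 were at -0.053 and 0.089. The large counts make these small ratios precise for the libraries without saying how far 2 cultures would differ.

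Among the co-chaperones and smaller folding factors, Creld2, Sdf2l1 and Manf held the highest ratios of the whole set as measured. Creld2, an ER-stress-inducible disulfide isomerase that has been studied in cartilage, had 1340 counts (49.3 CPM) in the Sparcl1 library, against 1212 (41.1 CPM) in the PBS library, a log2 ratio of 0.26 (0.15 to 0.38). Sdf2l1, a BiP co-factor, had 1162 counts (42.7 CPM) in the Sparcl1 library, against 1069 (36.2 CPM) in the PBS library, a log2 ratio of 0.24 (0.12 to 0.36). Manf, a secreted BiP-binding protein, had 2595 counts (95.4 CPM) in the Sparcl1 library, against 2479 (84.0 CPM) in the PBS library, a log2 ratio of 0.18 (0.10 to 0.26). These genes, singled out after their values were seen, stood at percentiles 91.5, 89.9 and 84.6 among genes with at least 200 summed counts, and none was called. Creld2 and Sdf2l1 are the shortest of the 35, with 1366 and 1108 exon bases. With smooth trends on exon length and GC content removed, their log2 ratios were 0.13 and 0.074, while Manf was at 0.15. Of the J-domain co-chaperones, which drive the BiP cycle, Dnajb11 was at 0.067, Dnajc3 at 0.012 and Dnajb9 at -0.028. Hyou1, a large Hsp70-like exchange factor for BiP, was at 0.059.

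By interval alone, 8 of the 14 chaperones lay above 0 (57.1%) and 4 below (28.6%), against 20.1% and 21.6% of all measured genes. Deep genes have narrow intervals: of the genes with at least 1000 summed counts, 24.2% lay above and 27.2% below. The chaperones had from 2231 (Sdf2l1) to 65910 (Calr) summed counts, so that floor does not match their depth. The 14 genes together held 172751 counts, 0.643% of the Sparcl1 library, against 188223 counts, 0.630% of the PBS library. The log2 ratio of these sums was -0.0066 (-0.016 to 0.0028), in which Hspa5, Hsp90b1 and Pdia3, abundant and below 0, offset the members above 0. The 7 chaperones with an ER stress element ran from -0.090 to 0.26 with a median of 0.038. The 5 with a promoter at hand but no such element ran from -0.063 to 0.24 with a median of -0.028. They include Dnajb11, which held an ER stress element II. The ranges overlap almost wholly.

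No sensor or factor was called, and Xbp1 was their lowest. Xbp1, the transcription factor of the IRE1 branch, had 3346 counts (123 CPM) in the Sparcl1 library, against 3996 (135 CPM) in the PBS library, a log2 ratio of -0.14 (-0.21 to -0.072). Gene counts do not separate its spliced from its unspliced mRNA, so they carry no reading of IRE1 activity. Atf6 had 3225 counts (119 CPM) in the Sparcl1 library, against 3663 (124 CPM) in the PBS library, a log2 ratio of -0.067 (-0.135 to 0.0021). Ern1 was at -0.062 and Eif2ak3 at 0.011, both with intervals that held 0. Phosphorylation and cleavage, by which these sensors act, are not measured by RNA counts.

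Genes of ER-associated degradation, which sends misfolded proteins to the proteasome, were slightly lower in 3 of 4 cases, and none was called. Sel1l, the scaffold of the membrane ubiquitin ligase, had 6880 counts (253 CPM) in the Sparcl1 library, against 8214 (278 CPM) in the PBS library, a log2 ratio of -0.14 (-0.18 to -0.092). Edem1, a lectin that selects misfolded glycoproteins, had 4053 counts (149 CPM) in the Sparcl1 library, against 4907 (166 CPM) in the PBS library, a log2 ratio of -0.16 (-0.22 to -0.098). Herpud1, a stress-inducible partner of the ligase that carried both kinds of motif above, was at -0.11 (-0.18 to -0.046). Syvn1, the ligase itself (HRD1) and the partner of Sel1l, was at 0.071, with an interval that held 0 (-0.018 to 0.16).

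The regulators of the integrated stress response had 8 of 8 ratios below 1, with 5 intervals below 0 and 3 that held 0. Of the 13317 measured genes, 6709 had ratios below 1 and 21.6% had intervals below 0. Of the genes with at least 1000 summed counts, 27.2% had intervals below 0. The groups were drawn up with earlier results of these data known, so 8 of 8 is a description only. Over all 13 integrated stress response genes, 11 ratios lay below 1. The 8 stayed below 1 under each of 4 library scalings, which shift every gene by the same amount and so add little. They also stayed below 1 with length and GC trends removed, Cebpg by a small margin at -0.015. Trib3, a pseudokinase induced by ATF4 and DDIT3 that restrains ATF4, was the lowest of the 35. It had 600 counts (22.1 CPM) in the Sparcl1 library, against 953 (32.3 CPM) in the PBS library, 1.46-fold lower, with a log2 ratio of -0.55 (-0.70 to -0.40). That places it at percentile 1.22 of the genes with at least 200 summed counts. Ddit3, the stress transcription factor CHOP, had 809 counts (29.7 CPM) in the Sparcl1 library, against 1140 (38.6 CPM) in the PBS library, 1.30-fold lower, with a log2 ratio of -0.38 (-0.51 to -0.25) and percentile 3.34. Ddit3 shares 105 of its exon bases (6.13%) with a second protein-coding entry of the same name on the same strand. It shares 68 with Mars on the opposite strand, and Mars itself was at 0.0022. The Trib3 gene lies on chromosome 2 at 152337422 to 152344032 and Ddit3 on chromosome 10 at 127290774 to 127296288 of GRCm38. If the intervals were widened by an assumed coefficient of variation of 0.1 between cultures, Trib3 would still be called and Ddit3 would not.

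Of the transcription factors upstream of these genes, Atf4 and Cebpg were closer to level. Atf5 lay farther below 0 than either, though it was not called as measured. Atf4, the central factor of the response and one regulated mainly by translation, had 5377 counts (198 CPM) in the Sparcl1 library, against 6080 (206 CPM) in the PBS library, a log2 ratio of -0.060 (-0.11 to -0.0069). Atf5, a related factor that is likewise controlled by translation, had 4278 counts (157 CPM) in the Sparcl1 library, against 5517 (187 CPM) in the PBS library, a log2 ratio of -0.25 (-0.31 to -0.19). Atf5 shares 82 exon bases with Nup62 on the opposite strand, and Nup62 was at 0.23. Cebpg, a dimer partner of ATF4, was at -0.072. Chac1, a glutathione-degrading enzyme and strong ATF4 target, had the fewest counts of the set, with 362 in the Sparcl1 library, against 450 in the PBS library (-0.20, -0.40 to 0.0061). Ppp1r15a, the phosphatase subunit GADD34 that reverses eIF2 phosphorylation, was at -0.16 (-0.29 to -0.020). Sesn2, a leucine sensor of the mTORC1 pathway, was at -0.037. With length and GC trends removed, Atf5 (-0.39) and Chac1 (-0.33) joined Trib3 and Ddit3 among the lower calls, where 5.7% of all measured genes were called lower and 5.06% higher. The 8 genes together had 15629 counts in the Sparcl1 library, against 18935 in the PBS library, a log2 ratio of -0.16 (-0.19 to -0.13).

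**Figure D2:**
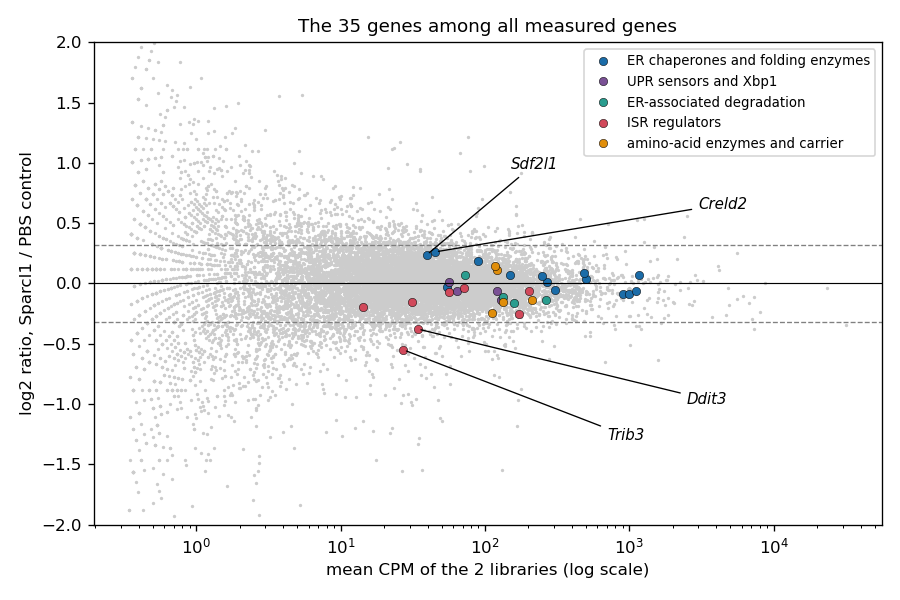
Log2 ratio, Sparcl1 over PBS control (vertical axis), against the mean CPM of the 2 libraries (horizontal log axis) for all measured genes in grey and the 35 genes in colour; dashed lines mark a log2 ratio of 0.32 in size, and 41 genes lie beyond the plotted range. Most of the 35 genes sit inside the dense band, and Trib3 and Ddit3 fall below the lower dashed line.

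The amino-acid genes split into lower and higher members. Asns, the asparagine synthetase and a classic ATF4 target, had 2773 counts (102 CPM) in the Sparcl1 library, against 3562 (121 CPM) in the PBS library, a log2 ratio of -0.24 (-0.32 to -0.17). Psat1, the aminotransferase of serine synthesis, had 3417 counts (126 CPM) in the Sparcl1 library, against 4119 (140 CPM) in the PBS library, a log2 ratio of -0.15 (-0.22 to -0.087). Slc3a2, the heavy chain shared by several amino-acid exchangers, had 5456 counts (201 CPM) in the Sparcl1 library, against 6520 (221 CPM) in the PBS library, a log2 ratio of -0.14 (-0.19 to -0.088). Phgdh, the first enzyme of the same serine pathway as Psat1, went the other way, with 3430 counts in the Sparcl1 library, against 3448 in the PBS library, a log2 ratio of 0.11 (0.041 to 0.18). Shmt2, the mitochondrial enzyme that passes serine carbon to folate, was at 0.14 (0.072 to 0.21). With length and GC trends removed, Phgdh and Shmt2 were at 0.0024 and 0.046 and the other genes of this group stayed below 0.

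The difference of medians between the amino-acid genes and the chaperones was -0.19 on the log2 scale. It was -0.11 with means in place of medians, and -0.061 between the log2 ratios of the summed counts. Taking all 13 integrated stress response genes against all 22 unfolded protein response genes, the medians were -0.15 and -0.0084, a difference of -0.14. Of the 13, 11 ratios lay below 1, with 8 intervals below 0 and 2 above. Of the 22, 11 ratios lay below 1, with 8 intervals below 0 and 8 above. The genes of each branch share the same 2 libraries and are not replicates, so no test of this difference was made. The chaperone and amino-acid ranges overlap, from -0.090 to 0.26 and from -0.24 to 0.14.

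**Figure D3:**
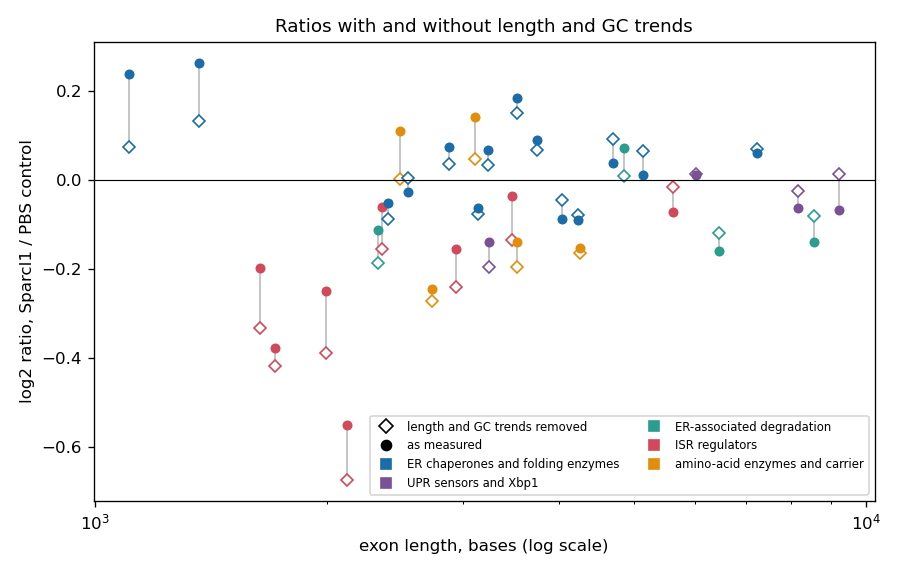
Log2 ratio, Sparcl1 over PBS control (vertical axis), against exon length in bases (horizontal log axis) for each of the 35 genes, as measured (filled circles) and with smooth trends on length and GC content removed (open diamonds), coloured by group. The shortest chaperone, Sdf2l1, moved to 0.074 and Trib3 to -0.67, while the ISR regulators stayed below 0.

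Levels per exon length spanned over an order of magnitude within the set. Calr was the most abundant, at 414 CPM per kb of exon in the Sparcl1 library and 394 in the PBS library, followed by Pdia3, Hsp90b1 and Hspa5. The chaperones ran from 21.1 to 414 CPM per kb in the Sparcl1 library and from 21.5 to 394 in the PBS library, with Dnajb9 lowest. The regulators ran from 8.13 (Chac1) to 83.8 (Atf4) CPM per kb in the Sparcl1 library and from 9.32 (Chac1) to 93.8 (Atf5) in the PBS library. Atf5 thus stood above Atf4 per length in the PBS library and below it in the Sparcl1 library. Ern1 was the lowest of all 35, at 7.69 CPM per kb in the Sparcl1 library and 8.03 in the PBS library. Trib3 had 10.4 CPM per kb in the Sparcl1 library and 15.2 in the PBS library. By mean level per length, Ddit3 ranked 27 and Trib3 ranked 30 of the 35.

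**Figure D4:**
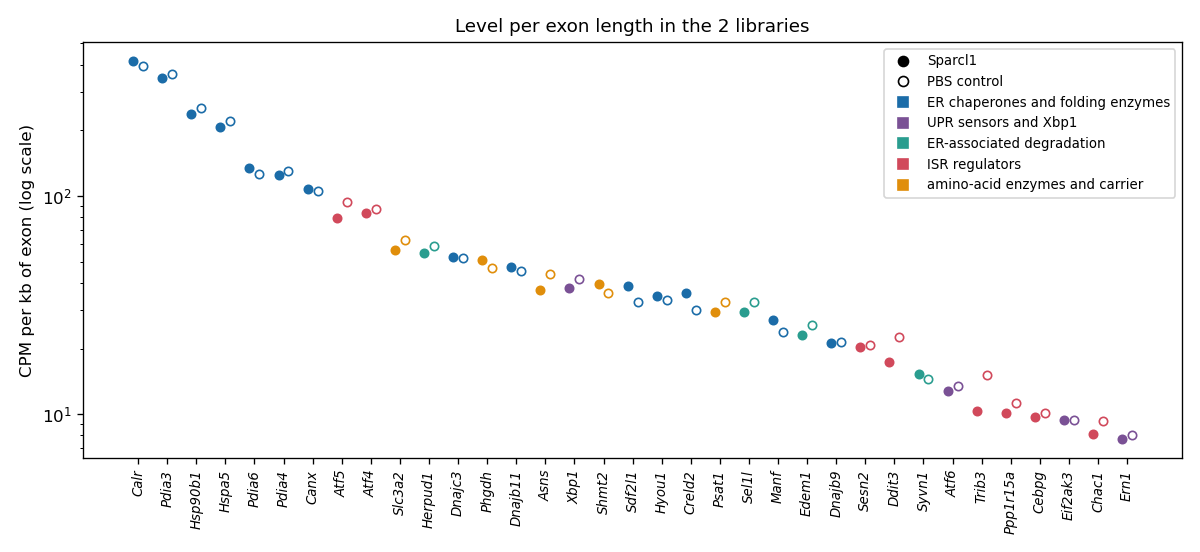
Level in CPM per kb of exon (vertical log axis) for the 35 genes in order of mean level, with the Sparcl1 library as filled and the PBS control library as open circles, coloured by group. Calr tops the order at 414 and 394, Ern1 closes it at 7.69 and 8.03, and the gap between circles is widest for Trib3.

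Related genes outside the 35 were described by lists. The calls in each list are to be read beside the shares of all measured genes called, 5.97% higher and 5.77% lower. Among genes with at least 1000 summed counts these shares were 3.16% and 3.07%. Of 30 further amino-acid genes, 5 were lower and none was higher by the size rule, with a median log2 ratio of -0.097. The lower genes were Aldh1l2, a mitochondrial folate enzyme, at -0.75 (854 counts in the Sparcl1 library, against 1562 in the PBS library), Slc7a5, the light chain that pairs with Slc3a2, at -0.56 (2531 counts, against 4049), and Pycr1, the proline-making reductase, at -0.51 (499 counts, against 769). Cth, of cysteine synthesis, at -0.46, and the arginine carrier gene Slc7a3, at -0.94 from 60 counts in the Sparcl1 library and 125 in the PBS library, completed the lower calls. The genes of this list were not sorted into ATF4 targets and others, so the lower calls are not a reading of ATF4 targets. The highest deep members were Mthfd1 at 0.27, Glul at 0.26 and the cystine carrier gene Slc7a11 at 0.21, whose interval held 0. Of 20 cytosolic tRNA synthetases, many of them ATF4 targets, Eprs was the 1 lower call at -0.40, none was higher and the median was -0.042. With trends removed Eprs was at -0.24 and no synthetase was called, while the 5 lower amino-acid calls held and Slc7a11 was called higher at 0.38. Iars and Aars followed at -0.21 each, and Farsa, Hars and Qars were highest at 0.27, 0.11 and 0.079.

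Of 34 further genes of the eIF2 pathway and of ATF4 targets, 2 were higher and 2 lower, with a median of -0.0024. The higher genes were Cebpb, a C/EBP factor of stress and inflammation, at 0.42 (6547 counts in the Sparcl1 library, against 5313 in the PBS library), and Ddit4, an mTORC1 inhibitor, at 0.38. Stc2, a secreted glycoprotein, was lower at -0.54. Eif2ak2, the eIF2 kinase PKR that double-stranded RNA activates and interferon induces, was lower at -0.49, with 2241 counts in the Sparcl1 library, against 3410 in the PBS library. Bbc3 at 0.30 and Oma1 at -0.26 came next at each end. With length and GC trends removed, neither higher call held, as Cebpb and Ddit4 were both at 0.25. The list then had 0 higher and 3 lower calls, Stc2, Eif2ak2 and the stress factor gene Atf3 (-0.33), with a median of -0.024.

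Of 49 further ER folding genes, 1 was higher and none was lower, with a median of -0.023. The higher gene was Erp29, a folding factor of the ER lumen, at 0.33. Fkbp11 and Cnpy4 were at 0.28 and 0.26, and Fkbp7, Ostc and Uggt2 at -0.27, -0.21 and -0.21. Of 29 further degradation and translocation genes, 2 were higher, with a median of -0.011. These were the ligase gene Rnf5 at 0.39 and the translocon gene Sec61g at 0.97, the second from 63 counts in the Sparcl1 library and 35 in the PBS library. With trends removed Rnf5 was at 0.29 and no longer called. Ube2g2 and Vcp were at 0.23 and 0.11, and Erlec1, Ngly1 and Rnf139 at -0.27, -0.26 and -0.20. Of 32 further factors of the response and of ER export, Kdelr3, a receptor that returns chaperones to the ER, was the 1 lower call at -0.32, with a list median of 0.0021. Creb3l1 and Golgb1 were at -0.24 and -0.22, and Bax, Sec11c and Atf6b at 0.26, 0.18 and 0.18. With trends removed Creb3l1 (-0.36) joined Kdelr3 among the lower calls.

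Chaperones of other compartments gave a point of comparison. Of 17 cytosolic heat shock genes, 2 were higher and none was lower, with a median of 0.072. Hspa1b was at 0.55 and Hspb1 at 0.34, followed by Stip1 at 0.30, while Dnajb4 (-0.27), Cryab (-0.095) and Hspa4 (-0.062) were lowest. The near-identical Hspa1a was at 0.075, and counts can be split between these copies. With trends removed Hspb1 was at 0.15 and no longer called. Of 12 mitochondrial chaperone and protease genes none was called, and the median was 0.065, or 0.0098 with trends removed. Htra2, Afg3l2 and Spg7 were highest at 0.32, 0.15 and 0.14, and Yme1l1, Hspa9 and Clpx lowest at -0.21, -0.15 and -0.039.

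**Figure D5:**
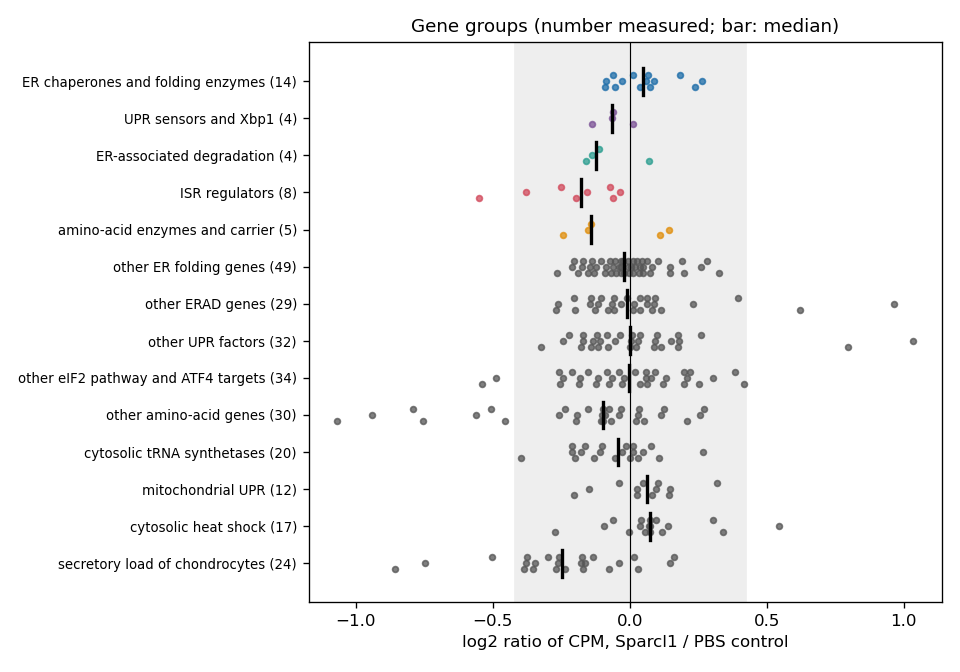
Log2 ratio of CPM, Sparcl1 over PBS control (horizontal axis), for each measured gene of 14 gene groups, with the number measured in brackets, medians as black bars and the central 95% of genes with at least 200 summed counts, -0.42 to 0.42, as a grey band. The ISR regulators have a median of -0.18 and the secretory matrix genes of -0.25, while the chaperone median is 0.049.

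The secreted cartilage and matrix proteins that pass through the ER, a list of 24 genes, had 8 lower and no higher calls. Of all measured genes, 5.77% were called lower and 5.97% higher. The median log2 ratio of the list was -0.25. Its genes held 7.20% of the counts in the Sparcl1 library and 7.77% in the PBS library. Acan, Epyc and Col1a1 were at -0.50, -0.39 and -0.38, and the other lower calls were Col11a1 (-0.37), Hapln1 (-0.35), Col9a1 (-0.34) and, from fewer than 200 summed counts each, Chad (-0.86) and Matn3 (-0.75). Prelp, Comp and Dcn were the highest with at least 200 summed counts, at 0.15, 0.029 and 0.016. With trends removed Col11a1 (-0.28) and Hapln1 (-0.26) lost the call, and Col9a3 (-0.36) and Cnmd (-0.32) gained it. Markers of cell types are given beside the groups above, and the same shares of all measured genes apply to their calls. Chondrocyte markers had 5 lower calls among 12, with a summed level of 11133 CPM in the Sparcl1 library and 12559 in the PBS library, and none at 0. Macrophage markers, 15 of 15 measured, had 2 higher and 1 lower calls and summed to 3061 CPM in the Sparcl1 library and 2756 in the PBS library, with a median log2 ratio of 0.030. Lyz2 alone had 1640 CPM in the Sparcl1 library and 1327 in the PBS library, and the other 14 summed to 1421 CPM in the Sparcl1 library and 1429 in the PBS library. Osteoblast markers, 7 measured, had 3 lower calls and summed to 6498 CPM in the Sparcl1 library and 8467 in the PBS library. Col1a1, also in the matrix list above, held 171600 of their 176750 counts in the Sparcl1 library. In the PBS library it held 242065 of 249779, so the sum is mostly a reading of that gene. Fibroblast and tendon markers had 2 lower calls among 8 and summed to 3739 CPM in the Sparcl1 library and 4375 in the PBS library. Endothelial markers summed to 5.18 CPM in the Sparcl1 library and 7.83 in the PBS library. Plasma cells are rich in ER chaperones, but B cell and plasma cell markers summed to 0.478 CPM in the Sparcl1 library and 0.949 in the PBS library, and Cd79b had no count in either. The part of these cell types in the ratios of the 35 genes was not tested.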

How the data were processed

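The authors deposited a table of raw read counts by gene symbol, with a column for each of 2 libraries, matched to the samples by name. Trimmomatic, FastQC, STAR and HTSeq with build mm10 were used, per the submitters' processing notes; versions, annotation, strand setting and handling of reads with several matches are not given in the sources used here. Without strand, overlapping genes on opposite strands cannot be separated. Library totals were 26871933 (Sparcl1) and 29858851 (PBS control).

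Counts were scaled with edgeR 4.0.16 TMM factors (R 4.3.3), 1.01 and 0.988. Intervals came from scipy 1.17.1 in Python 3.11.15, trends from statsmodels 0.14.6, tables from pandas 2.3.3 with numpy 2.4.6, and figures from matplotlib 3.10.9. No test across libraries is possible with 1 per group. The steps were checked on simulated counts. Exon lengths, GC content and positions come from GENCODE M21 (GRCm38), matched by symbol for 99.6% of genes and for all 35 members. Length and GC trends were removed by local regression on genes with at least 200 summed counts. DESeq2 1.42.0 gave alternative size factors.

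The members and lists were chosen with earlier results of these data known. All 35 members are named. Counts and intervals are given for the called members and for the 2 most abundant of each group, and for others singled out after their values were seen. Of each further pathway list, the 3 highest and 3 lowest genes with at least 200 summed counts are named, and called genes beyond these were named after their values were seen. Of 347 list entries, 2 were not in the table used.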

Additional observations from a re-analysis of the deposited data

How the results depend on the processing

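No paired analysis was possible because there is 1 library per group and the labels carry no replicate numbers to pair. Leaving out a library would leave no comparison. No member was called higher under any alternative run. The 2 lower calls became 4 of 35 with length and GC trends removed, where 5.7% of all measured genes were called lower, 1 with intervals widened by an assumed coefficient of variation of 0.1, and 0 at 1.5-fold or 2-fold. Trib3 ranged from -0.67 to -0.52 and Ddit3 from -0.42 to -0.34 over the scalings, the prior count and trend removal. Over all alternatives the chaperone median ranged from 0.046 to 0.084 and that of the 35 genes from -0.065 to -0.027. Taking means moved the amino-acid value to -0.057 and its difference from the chaperones to -0.11. The summed chaperone counts had a log2 ratio of 0.028 with total counts as library sizes and -0.025 without the member with the most counts, so the sign of that near-zero value depends on scaling. The summed amino-acid counts had -0.032 with total counts, -0.13 with trends removed and -0.036 without the member with the most counts. Total counts moved the median of all measured genes to 0.033. Of 175 alternative values for single members, 21 moved by more than the counting half-width. The called genes, Trib3 and Ddit3, kept their sign. Uncalled members near 0 did not always do so. Dnajb9 went from -0.028 to 0.0069 with total counts and to 0.0037 with trends removed. Atf6 went from -0.067 to 0.013 with trends removed. With total counts every gene shifts by the same amount, and trend removal subtracts the fitted length and GC trends, which gives these moves. The source of the trends was not tested. Counting error limits Chac1 most, and the spread between cultures is unknown for every value.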
